A study of Mus musculus with 9 samples.

Results

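The expression profile of wild-type (WT) mouse Th17 cultures at 60 h was described from 3 arrays, the only ones of the 9 in the series whose titles name WT Th17 cells. The other 6 arrays hold 2 mutant genotypes and were not used. Genes were taken from probe sets that carry 1 gene symbol, and a gene with several such probe sets was given by the one with the highest WT mean, which left 22180 named genes. No genotype was compared and no test was run: levels, their spread over 3 arrays and their order are given as a description.

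Naive CD4 T cells (CD4+, CD25-, CD44 low, CD62L high) had been sorted from WT spleens after removal of red blood cells and B cells. The labels give neither the strain nor the age of the mice. The cells were stimulated for 60 h by plate-bound antibodies to CD3 and CD28 (10 µg/ml each) with TGF-β1 at 1 ng/ml and IL-6 at 30 µg/ml, a dose written here as the labels have it. Antibodies to IL-4 and to IFN-γ (2 µg/ml each) were added to block the signals of the Th2 and Th1 fates. The 3 arrays are labelled biological replicates, and no label says whether separate mice or cultures gave them, so the SDs measure only the spread between these samples, which may be technical. The cultures were not sorted again before RNA extraction, and in such bulk RNA fewer cells of a type and less RNA per cell cannot be told apart.

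Th17 cells are helper T cells of mucosal defence and of several autoimmune diseases, known for the cytokines IL-17A, IL-17F, IL-21 and IL-22. In mouse cells TGF-β and IL-6 together start the programme: IL-6 acts through gp130 and STAT3, TGF-β through SMAD proteins, and antigen receptor signals through IRF4 and BATF. IL-21 acts back on the cells through STAT3, and IL-23, for which the cells gain the receptor, maintains and matures them later. A naive cell entering this programme also grows and divides, which needs glycolysis, mitochondrial respiration and the synthesis of lipids and nucleotides.

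Values were log2 probe set intensities as deposited. An intensity depends on the binding of its probes as well as on the amount of RNA, so a gene's position among the genes is that of its intensity and gives no order of transcript amounts between genes. Over the named genes the WT mean ran from 3.15 to 13.70, with a median of 7.29 and quartiles of 6.40 and 8.43. To read the low end, the 1088 olfactory receptor genes, which serve smell and are not known for a role in T cells, were used as a reference. Their median was 5.54. The 95th percentile of their intensities in the same array, here called the receptor limit, was 7.73 to 7.77. A gene is called above the limit where it exceeded it in each of the 3 arrays, which 8180 genes did (36.9% of the named genes), while 13386 did so in no array and 614 in 1 or 2. The upper band is the upper 10% of named genes by WT mean, and it started at 9.53. A gene below the limit may still be transcribed, and one above it may owe its intensity to its probes: of 26 marker genes of unrelated tissues, 2 lay above the limit, the myelin gene Mbp (7.99, SD 0.00) and the cartilage collagen gene Col2a1 (7.81 ± 0.07, SD, n = 3). Alb, the liver gene of albumin, was under it (7.35 ± 0.05), and the pancreatic amylase gene Amy2b was the lowest of the 26 (4.75 ± 0.25). The median of the 26 was 6.90, against 5.54 for the olfactory receptor genes. Of 51 keratin-associated protein genes 15.7% lay above the limit, and of 55 defensin genes 10.9%. The share was 4.41% for the olfactory and 4.56% for 285 vomeronasal receptor genes, so it depended on the family. Whether these families were transcribed was not tested.

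**Figure D1:**
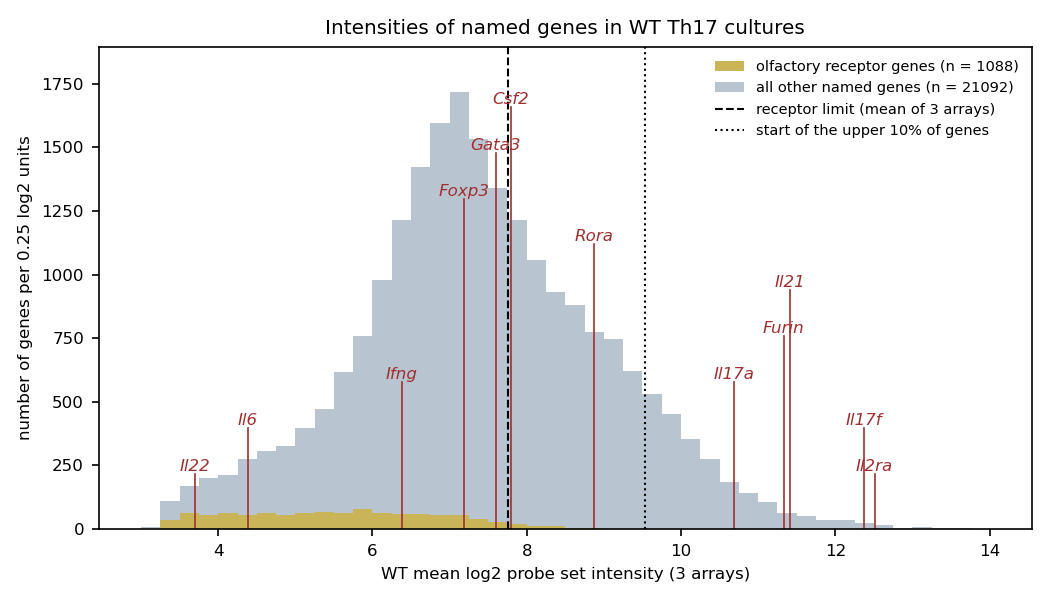
Number of named genes by WT mean log2 probe set intensity (horizontal axis, mean of 3 arrays), with the 1088 olfactory receptor genes in a separate colour, the receptor limit dashed and the start of the upper 10% dotted. Il17f, Il21, Furin, Il17a and Il2ra lie to the right of the dotted line, Rora between the lines, Csf2 at the limit, and Gata3, Foxp3, Ifng, Il6 and Il22 to the left of it.

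The arrays resembled each other closely, with Pearson correlations of 0.993 to 0.994 and medians of 7.12 to 7.13, both over all probe sets. The median SD of a gene over the 3 arrays was 0.06, and 95% of the genes above the limit had an SD of at most 0.16. Array 1 stood slightly apart: of the 53 genes above the limit with an SD over 0.3, 36 had array 1 as the farthest array, against 7 for array 2 and 10 for array 3. Genes that rest on such a spread are given below with their value in every array. Identical deposited values also occurred: 377 named genes (1.7%) had the same value in all 3 arrays, among them Il4, Prdm1 and Crlf2, and an SD of 0.00 for such genes is not a measure of precision.

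The 4 genes taken to mark such cultures all lay in the upper 3 percentiles of the profile. Like the lists, they were chosen with earlier results of these data known, so they are no independent check of the label. Of the 21 Th17 cytokine and effector genes that include them, 13 lay above the limit (61.9%, against 36.9% of all named genes). Il22, the lowest of the 21, was at the 1.11th percentile. Il17f, which encodes IL-17F, stood at 12.38, 12.05 and 12.68 in arrays 1 to 3 (12.37 ± 0.32, SD, n = 3), higher than 99.8% of the named genes. Il21, which encodes IL-21, stood at 11.55, 11.25 and 11.44 (99.1st percentile). Furin, the proprotein convertase that among other substrates matures TGF-β1, stood at 11.50, 11.25 and 11.24 (11.33 ± 0.14). Il17a, which encodes IL-17A, was high in every array but spread most among these markers, at 11.14, 10.09 and 10.83 (10.69 ± 0.54). Its percentile was 97.6, and leaving out 1 array at a time moved it between 96.7 and 98.4. Il17f, Il21 and Il17a all had their lowest value in array 2, and no array of any of the 4 markers came near the receptor limit.

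The promoters of the IL-17 genes are printed beside those of Il2ra, the gene of the IL-2 receptor α chain (12.51 ± 0.07), and Pgk1, a glycolytic gene (12.71 ± 0.03), because all 4 genes lie at the top of the profile while their promoters differ in CG dinucleotides. Each line holds the 250 bases before the transcription start in the RefSeq table of assembly GRCm38.p6, 5′ to 3′ on the gene's strand, in lower case with every CG in capitals. The stretches are chr1:20730655-20730904 (plus strand) for Il17a, chr1:20784271-20784520 (minus strand) for Il17f, chr2:11642542-11642791 (plus strand) for Il2ra and chrX:106186850-106187099 (plus strand) for Pgk1. The promoter table lists 1 start for each of these genes. The annotated span of Il17f, chr1:20777146-20785274, reaches beyond that start, so its printed stretch lies within the span and may not precede every transcript of the gene.
Il17a: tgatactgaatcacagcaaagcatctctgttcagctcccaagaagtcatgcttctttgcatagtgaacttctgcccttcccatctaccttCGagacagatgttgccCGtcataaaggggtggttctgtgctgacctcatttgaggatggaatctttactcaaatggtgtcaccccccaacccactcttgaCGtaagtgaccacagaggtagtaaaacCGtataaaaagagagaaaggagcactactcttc
Il17f: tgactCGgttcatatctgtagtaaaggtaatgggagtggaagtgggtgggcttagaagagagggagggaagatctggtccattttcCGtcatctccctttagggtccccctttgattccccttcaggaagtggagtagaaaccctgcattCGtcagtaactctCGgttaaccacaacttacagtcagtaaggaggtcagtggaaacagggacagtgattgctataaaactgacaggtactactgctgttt
Il2ra: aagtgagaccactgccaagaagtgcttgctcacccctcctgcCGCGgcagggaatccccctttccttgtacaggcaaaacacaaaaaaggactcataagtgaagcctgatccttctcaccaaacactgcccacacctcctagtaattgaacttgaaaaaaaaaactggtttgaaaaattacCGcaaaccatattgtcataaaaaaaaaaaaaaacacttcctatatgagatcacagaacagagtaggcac
Pgk1: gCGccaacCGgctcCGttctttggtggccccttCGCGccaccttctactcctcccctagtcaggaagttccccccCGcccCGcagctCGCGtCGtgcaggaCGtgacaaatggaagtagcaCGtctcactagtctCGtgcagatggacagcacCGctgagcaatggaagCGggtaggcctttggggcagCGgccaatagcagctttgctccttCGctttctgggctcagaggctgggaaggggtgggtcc
Il17a and Il17f held 4 CG each and Il2ra 3, whereas Pgk1 held 17. Gapdh, another glycolytic gene at the top of the profile (13.27 ± 0.10), held 8 in its stretch, which is not printed and also lies within the annotated span. Pgk1 thus does not stand for all glycolytic genes. The letters TATAAA, searched on both strands, were found in the Il17a and Il17f stretches. Among the 14336 named genes with 1 start in that table, 49.6% had 10 or more CG in such a stretch. That share was 85.3% in the upper 10% of the profile and 31.3% among genes above the limit in no array, 36.1% when olfactory, vomeronasal and taste receptor genes were left out. The share was also taken in 10 bins of the profile with equal numbers of named genes, of which 1398 to 1551 per bin had 1 start. From the lowest intensity to the highest it ran through 7.09, 22.5, 30.5, 37.1, 41.3, 51.7, 64.8, 77.3, 82.7 and 85.3%. When those receptor genes were left out, the lowest bins gave 11.7, 26.5 and 33% and the highest 85.3%. Of 73 cytokine genes 20.5% had 10 or more CG, and the share was 22.2% for the 27 above the limit and 19.6% for the 46 others. Among 76 lineage genes it was 40% for the 55 above the limit and 42.9% for the 21 others. Among 118 receptor genes it was 60% for the 65 above the limit and 43.4% for the 53 others, and among 140 metabolic genes 83.3% for the 120 above it and 40% for the 20 others. TATAAA was found in 12.6% of all 14336 stretches, in 35.6% of those of cytokine genes and in 5.71% of those of metabolic genes. Such matches are letters in a window and not evidence of binding.

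The 40 gene lists used here fall into lineage, cytokine, receptor and metabolic genes, with further lists for the cell cycle, Swi/Snf subunits and other cell types. Of their 761 members 696 were measured. Several probe sets were present for 37 of these members, and in 20 of them some probe sets lay above the limit and others did not. Of the 128 lineage genes measured, 94 lay above the limit (73.4%, against 36.9% of all named genes) and 49 in the upper band. Metabolic genes lay above it more often still, 165 of 196 (84.2%, 99 in the upper band). Receptor genes came next, 102 of 170 (60%, 33 in the upper band). Of 117 cytokine and effector genes 39 lay above it (33.3%, 14 in the upper band), a share close to that of all genes. The counts of each list below stand beside the same 36.9% of all named genes. With the limit at the 99th percentile of the olfactory receptor genes, 5131 named genes lay above it instead of 8180. Of the 117 cytokine genes 25 did so instead of 39. Single lists shrank beside this general drop: 2 of 12 Th1 genes remained instead of 6, and 5 of 19 regulatory T cell genes instead of 9. Of 35 interleukins 6 remained instead of 10, and of 27 chemoattractant receptors 8 instead of 15.

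**Figure D2:**
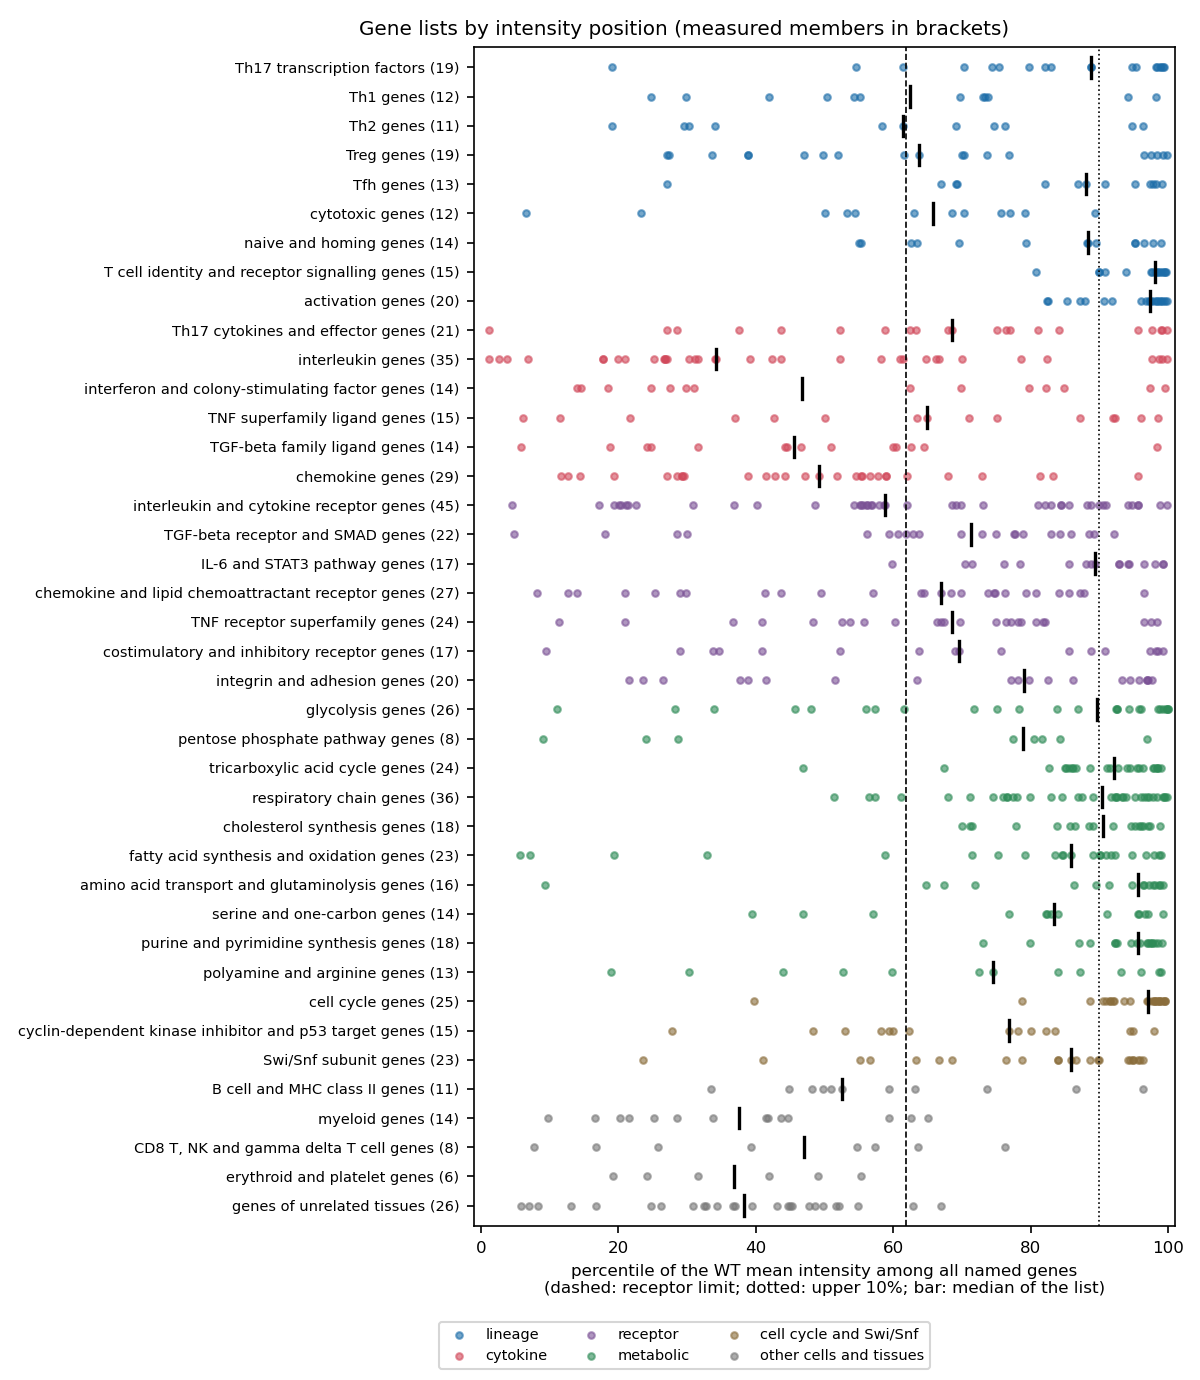
Percentile of the WT mean intensity among all named genes (horizontal axis) for every measured member of the 40 lists; each point is a gene and each bar the median of its list, the dashed line is the receptor limit (61.8th percentile) and the dotted line the start of the upper 10%. T cell identity, activation, cell cycle and nucleotide synthesis genes crowd at the right, and interleukin and myeloid genes have their medians far to the left, at 34.2 and 37.6.

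All 15 genes of T cell identity and receptor signalling lay above the limit, with a median percentile of 98.1. They ran from Lcp2, the adaptor SLP-76 (12.13, 12.12 and 12.13), down to the costimulatory receptor gene Cd27 (8.99, 8.78 and 8.62). Cd4, the coreceptor by which the cells were sorted, stood at 11.50, 11.09 and 11.12. Cd3e, a signalling chain of the antigen receptor, stood at 11.59, 11.20 and 11.31, and Zap70, the kinase bound to that receptor, at 10.02, 9.89 and 9.94.

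All 20 activation genes lay above the limit as well, 15 of them in the upper band. Il2ra was the highest, at 12.58, 12.44 and 12.50, and its percentile was 99.8. Tfrc, the transferrin receptor of growing cells (11.61 ± 0.05), and Myc, the growth regulator (11.00 ± 0.10), were also near the top. Nr4a1 and Nr4a3, immediate targets of antigen receptor signals, were in the upper band at 60 h. Nr4a1 stood at 11.52, 10.97 and 11.38, and Nr4a3 at 11.09, 10.45 and 10.82. The surface activation marker gene Cd69 (10.47 ± 0.14) was in the upper band too. Cd44, another such marker (8.91 ± 0.09), and Tnfsf11, the gene of RANKL (9.27 ± 0.13), lay between that band and the limit. The lowest of the list was Egr1, a further immediate target of antigen receptor signals, at 8.89, 9.05 and 8.78 (82.4th percentile). The Nr4a genes, like Il17a, were lowest in array 2.

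Transcription factors known for roles in Th17 cells were mostly high, with 16 of 19 above the limit and a median percentile of 88.7. Bhlhe40, which permits cytokine production by helper cells, led the list at 11.91, 11.55 and 11.66. Stat3, the factor activated by IL-6, IL-21 and IL-23, stood at 11.59, 11.43 and 11.38. Hif1a, the hypoxia factor that also drives glycolytic genes, stood at 11.35 ± 0.07 on its brighter probe set and at 8.24 on the other. Irf4 stood at 11.22 ± 0.06 (98.8th percentile). These 4 genes were in the upper 2 percentiles of the profile with arrays that differed by less than 0.4 log2 units.

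A second set of Th17 factors lay in the middle. Ahr, the aryl hydrocarbon receptor on which IL-22 production depends, stood at 9.36, 9.41 and 9.46 (88.7th percentile). Batf, the partner of IRF4, stood at 8.90, 9.03 and 8.93 (82.9th percentile), and Rora, the nuclear receptor RORα, at 8.97, 8.78 and 8.87. Maf, which acts on Il21 and Il10, was at 8.75, 8.49 and 8.95 on its brighter probe set and at 7.11 on the other. Ikzf3, the gene of Aiolos, stood at 8.46 ± 0.10. Sox5, a partner of c-MAF, reached the limit in 1 array (7.74 ± 0.06). Prdm1, the gene of Blimp-1, and Pparg, a nuclear receptor known to restrain Th17 differentiation, lay below it in all 3, at 7.46 and 6.10.

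For the Th1 fate, 6 of 12 genes lay above the limit (50%, against 36.9% of all named genes). Stat4, which carries the IL-12 signal, stood at 11.07, 10.89 and 10.73 (98.2nd percentile), and Il12rb2, the signalling chain of the IL-12 receptor, at 10.19, 9.98 and 9.86. Tbx21, which encodes T-bet, the master regulator of Th1 cells, stood at 8.17, 8.37 and 8.39 (73.1st percentile), above the limit in all arrays. Cxcr3, a homing receptor of Th1 cells, stood at 8.36 ± 0.06. The IL-18 receptor genes Il18r1 (7.45 ± 0.03) and Il18rap (7.48 ± 0.08) were below the limit. Eomes, the relative of T-bet, was below it at 6.60 ± 0.01, and so was the cytokine gene Ifng, at 6.36, 6.40 and 6.40 (24.7th percentile).

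For Th2 cells, 5 of 11 genes lay above the limit (45.5%, against 36.9% of all named genes). Stat6 and Il4ra, which carry the IL-4 signal, stood at 10.38 ± 0.09 and 10.09 ± 0.08. Gata3, the master regulator of Th2 cells that is also needed by CD4 T cells at large, was under the limit in each array, at 7.54, 7.71 and 7.56 (58.4th percentile). The Th2 cytokine genes differed: Il13 stood at 7.71, 7.68 and 7.82 (61.4th percentile), above the limit in array 3 alone, and Il4 (6.62 in each array) and Il5 (6.76 ± 0.02) were lower, at percentiles 30.2 and 34.0.

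For regulatory T cells, 9 of 19 genes lay above the limit (47.4%, against 36.9% of all named genes). Foxp3, which defines that lineage and which TGF-β can induce, was under it in each array, at 7.22, 7.21 and 7.13 (47.0th percentile). The 5 genes of the list in the upper band were Il2ra, Ctla4, Tnfrsf4, Tnfrsf9 and Tnfrsf18, all of which activated conventional T cells are known to express too. Ctla4, the inhibitory receptor, stood at 11.71, 11.36 and 11.60. Tigit, an inhibitory receptor gene, passed the limit in 2 arrays, at 7.97, 7.85 and 7.72. Ikzf2, the gene of Helios, lay at 6.23, 6.52 and 6.75, and Il10 at 6.74, 6.18 and 6.53.

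Genes linked to follicular helper T cells were largely high, 12 of 13 above the limit with a median percentile of 88.0. Il21 led them, followed by Btla (10.88 ± 0.01), an inhibitory receptor, and Lef1 (10.74 ± 0.04), a factor shared with naive cells. Bcl6, the master regulator of that fate, was only slightly above the limit, at 8.06, 8.32 and 7.92. Cxcr5, the receptor that leads these cells into follicles, was likewise low, at 8.13, 7.96 and 7.89, and Ascl2 was under the limit (6.48 ± 0.14).

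Genes of naive cells and of lymph node homing lay mostly above the limit, 11 of 14, with 5 in the upper band. No naive cells were measured, so a change from them cannot be read. Satb1, a chromatin organiser, stood at 11.24 ± 0.03, and Bach2, a repressor that holds back effector differentiation, at 10.15 ± 0.09. Ccr7, the lymph node homing receptor, stood at 10.70, 10.23 and 10.31 and Il7r, the receptor of the survival factor IL-7, at 9.36 ± 0.17. S1pr1, the receptor for lymph node exit, stood at 8.70 ± 0.06. Klf2, which drives genes of recirculation, was just above the limit (7.78, 7.87 and 7.85), and Nsg2 was the lowest of the list at 7.47 ± 0.04. Of 12 cytotoxic genes 6 lay above the limit (50%, against 36.9% of all named genes) and none in the upper band. Gzmb, the gene of granzyme B, was at 8.53, 8.59 and 8.31, and Prf1, the gene of perforin, at 8.07 ± 0.11. The highest of the list was Lamp1 (9.47 ± 0.11), a lysosomal membrane gene that most cells use, and the lowest Gzmc (4.87 ± 0.09).

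Among the 35 interleukin genes, 10 lay above the limit (28.6%, against 36.9% of all named genes), and the median percentile of the list was 34.2. The 4 in the upper band were Il17f, Il21, Il2 and Il17a. Il2, the T cell growth factor, stood at 11.35, 11.01 and 10.89 (98.6th percentile). Il3, a growth factor of myeloid precursors that activated T cells release, stood at 9.31, 8.75 and 8.63, with array 1 the highest. Between the limit and the 80th percentile were Il27, Ebi3, Il1rn, Il16 and Il17d, and the relatives Il17c and Il17b of the IL-17 family lay under it, at 7.71 ± 0.04 and 4.12 ± 0.12.

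Several cytokines that Th17 cells can make were at or under the limit at 60 h. Il22, the epithelial cytokine, was the lowest of all interleukins measured, at 3.55, 3.83 and 3.73 (1.11th percentile). Csf2, which encodes GM-CSF, straddled the limit: it was above it in array 1 (8.22) and under it in arrays 2 and 3 (7.70 and 7.44), and its other probe set read 6.62. Its percentile was 62.4 and ranged from 57.5 to 66.3 with 1 array left out. Il9 stood at 7.27, 6.74 and 7.23, and Il6, supplied as protein in the medium, was near the floor at 4.36, 4.43 and 4.33.

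Of 21 Th17 cytokine and effector genes, 13 lay above the limit and 5 in the upper band, the 4 markers and Il23r, which encodes the specific chain of the IL-23 receptor. Ccr6, the receptor for CCL20 that leads Th17 cells to mucosa, stood at 9.05 ± 0.09 (84.1st percentile). Ccl20, its ligand, was nearer the limit, at 8.02, 7.85 and 8.25. Cd5l, a lipid regulator tied to non-pathogenic Th17 cells, stood at 8.07 ± 0.17, and Il1r1, which passes the IL-1 signal, at 8.74, 8.91 and 8.79. Tnfsf8, the gene of CD30 ligand, stood at 8.44 ± 0.07.

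**Figure D3:**
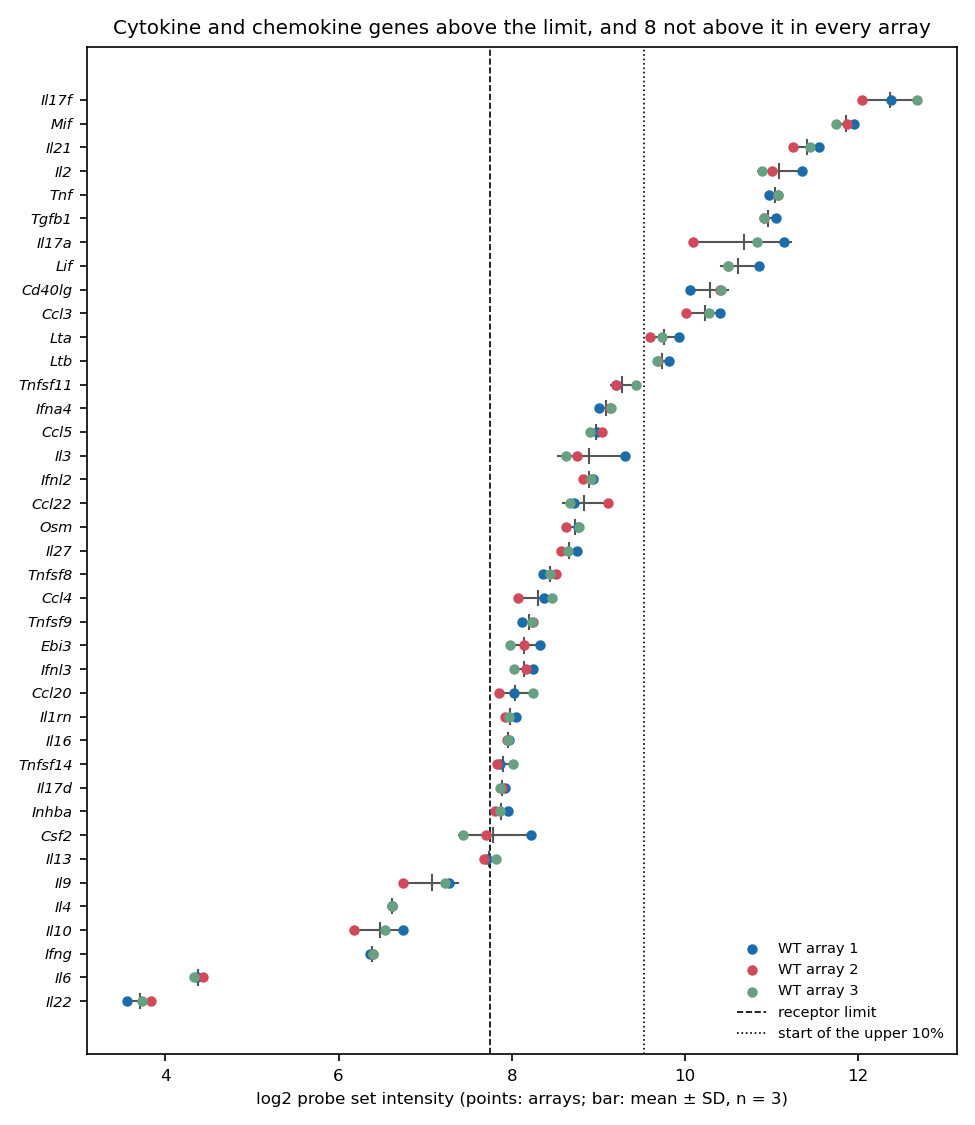
Log2 probe set intensity (horizontal axis) of the cytokine and chemokine genes above the receptor limit, and of 8 that were not above it in every array; points are the 3 WT arrays, tick and bar the mean and SD (n = 3). Il17a, Il3, Csf2 and Il10 have wide bars, and Il22 and Il6 lie far to the left of the dashed limit.

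Of 15 TNF superfamily ligand genes 8 lay above the limit (53.3%). Tnf stood at 10.97, 11.08 and 11.08 (98.5th percentile), and Cd40lg, the ligand by which helper cells activate B cells, at 10.06, 10.40 and 10.42. Both lymphotoxin genes, Lta (9.76 ± 0.16) and Ltb (9.73 ± 0.08), were in the upper band too. Fasl, the death ligand, was under the limit (7.30 ± 0.04) and Cd70 was at 4.80 in each array.

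Of 14 interferon and colony-stimulating factor genes 6 lay above the limit (42.9%, against 36.9% of all named genes). Mif (11.95, 11.87 and 11.75), a broadly expressed inflammatory factor, and Lif (10.85, 10.50 and 10.50), a cytokine of the IL-6 family, were in the upper band. The interferon genes Ifna4, Ifnl2 and Ifnl3 lay above the limit, at 9.09, 8.89 and 8.14. They have closely related copies, and whether their probes also bind other transcripts was not tested. Ifnb1 stood at 5.80 ± 0.00 and Ifna2, the lowest of the list, at 5.75 ± 0.07.

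Tgfb1 was high, at 11.05, 10.91 and 10.91 (98.3rd percentile), while its relatives Tgfb2 (6.36 ± 0.01) and Tgfb3 (6.67 ± 0.04) were under the limit. Of the 14 TGF-β family ligands, 2 lay above the limit, Tgfb1 and Inhba (7.96, 7.81 and 7.86). Mstn, the muscle factor myostatin, was the lowest (4.74 ± 0.02).

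Among 29 chemokine genes 5 lay above the limit. Ccl3, a chemoattractant of inflammatory cells, led at 10.41, 10.01 and 10.28, followed by Ccl5 (8.97 ± 0.07), Ccl22 (8.83 ± 0.24), Ccl4 (8.30 ± 0.21) and Ccl20. The interferon-induced chemokine gene Cxcl10 was at 6.58 ± 0.10, Xcl1, the gene of lymphotactin, at 6.11 in each array, and Ccl17 was the lowest, at 5.54 ± 0.03. Of the 39 cytokine class genes above the limit, 21 had their lowest value in array 2 (53.8%), against 22.7% of all 8180 genes above it. The reason was not tested.

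Receptors for the cytokines that drive Th17 differentiation lay above the limit, with 1 partial exception. For IL-6, Il6st, the signalling chain gp130, stood at 9.33, 9.44 and 9.48, and Il6ra, the binding chain, at 9.17, 9.15 and 9.11. For TGF-β, Tgfbr2, the ligand-binding chain, stood at 8.67, 8.68 and 8.68 and Tgfbr3, a coreceptor, at 8.63, 8.50 and 8.65. Tgfbr1, the signalling kinase, was above the limit in 2 of 3 arrays, at 7.73, 7.85 and 7.97. For IL-21 and IL-23, Il21r (10.15, 10.28 and 10.25) and Il23r (10.26, 10.21 and 10.24) were both at the 95.6th percentile, and Il12rb1, which pairs with IL-23R, stood at 9.58 ± 0.03.

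Of 45 interleukin and cytokine receptor genes 22 lay above the limit (48.9%, against 36.9% of all named genes) and 8 in the upper band. The IL-2 receptor gave the highest values, Il2ra followed by Il2rb at 11.30, 11.13 and 11.18. The type I and type II interferon receptor genes all lay above the limit, from Ifnar1 (9.52 ± 0.06) through Ifngr1 (9.07 ± 0.07) to Ifnar2 (8.89 ± 0.07). Il17ra, the broadly expressed chain of the IL-17 receptor, stood at 9.07 ± 0.07, while its partners Il17rc (7.53 ± 0.07), Il17re and Il17rb (6.64 ± 0.04) were under the limit. Il10ra, the IL-10 receptor chain, ran from 7.82 in array 1 through 7.55 to 7.20 and so was above the limit in array 1 alone. Il13ra2, a decoy receptor for IL-13, was the lowest at 4.52 ± 0.04.

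**Figure D4:**
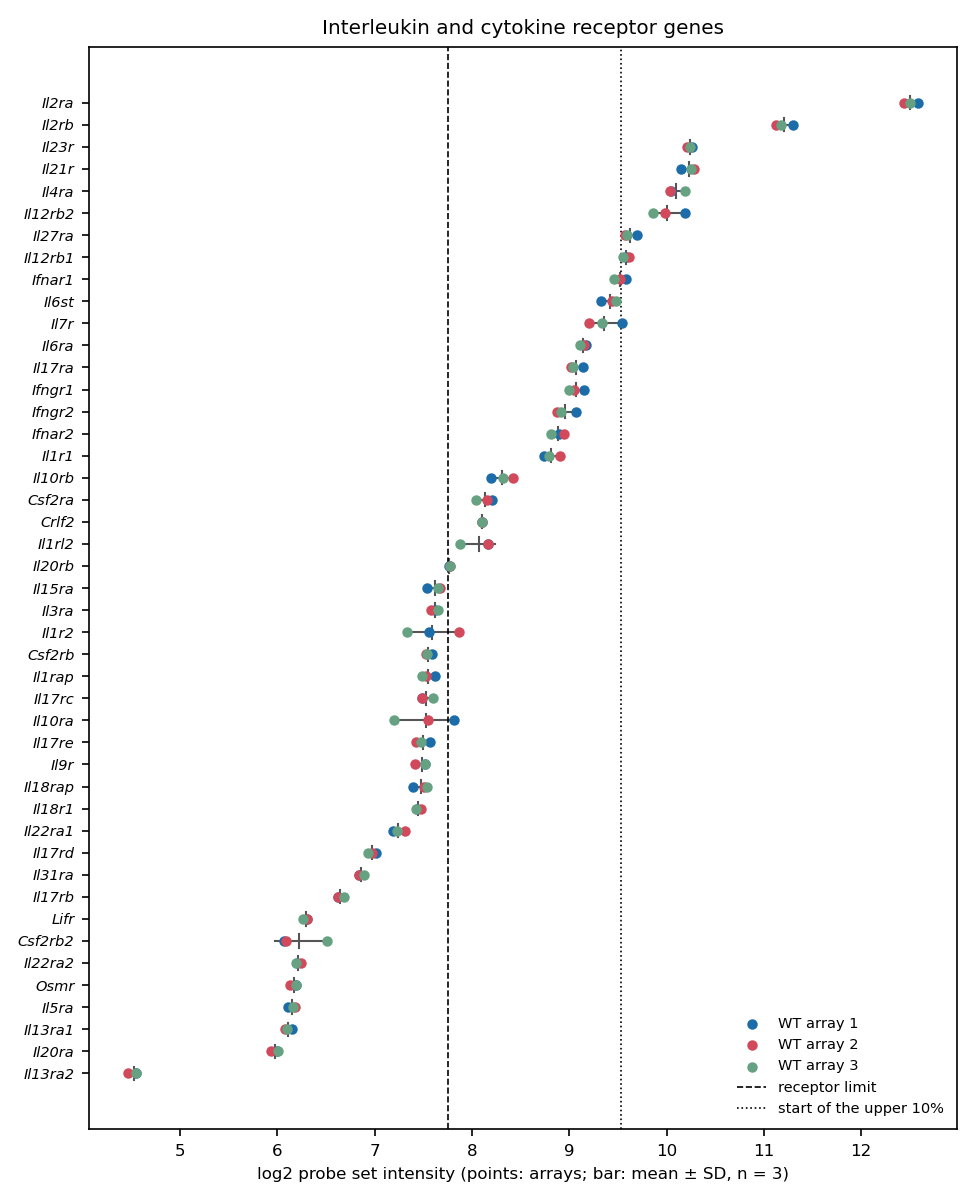
Log2 probe set intensity (horizontal axis) of the 45 interleukin and cytokine receptor genes; points are the 3 WT arrays, tick and bar the mean and SD (n = 3), with the receptor limit dashed and the start of the upper 10% dotted. The 22 genes above the limit run from Il2ra to Il20rb, and the arrays of most genes lie close together, with Il1r2, Il10ra and Csf2rb2 as wider ones.

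Of 17 genes of the signalling chain downstream of IL-6, 16 lay above the limit and 8 in the upper band, with a median percentile of 89.4. With the lowest probe set of each gene, 13 lay above the limit. The kinase genes Jak2 (11.64 ± 0.09) and Jak1 (10.88 ± 0.05) and Pim1, a kinase induced by STAT signals (10.40 ± 0.11), were in the upper band. Socs3, the feedback inhibitor of gp130, stood at 8.57, 8.46 and 8.46 on its brighter probe set and at 7.28 on the other. Socs1, a further feedback inhibitor, stood at 8.65 ± 0.09. Pias3, an inhibitor of STAT3, was the exception, at 7.73, 7.53 and 7.72.

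Genes of the TGF-β receptors and SMAD proteins lay lower, with 13 of 22 above the limit and a median percentile of 71.3. Smad4, the shared partner of the SMADs, was the only one in the upper band (9.84, 9.72 and 9.70). Smad2 (8.96 ± 0.02) and Smad3 (8.60 ± 0.04), which carry the TGF-β signal, lay in the middle, as did the corepressor genes Ski (9.45 ± 0.13) and Skil (9.18 ± 0.06). The inhibitory Smad7 stood at 8.09, 8.18 and 8.15, and Smad6, the inhibitor in the BMP branch, at 6.18, 5.98 and 5.98. Bmpr1b was at the bottom of the list with 4.58 in each array.

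Of 27 receptors for chemokines and lipid attractants 15 lay above the limit, and Ccr7 was the only one in the upper band. Ccr4 (9.34, 9.01 and 9.46), known on Th2, Th17 and skin-homing cells, stood next to Gpr183 (9.32 ± 0.12), a receptor for oxysterols. Cxcr4, the receptor for CXCL12, varied widely, at 8.91, 8.03 and 8.32, and its percentile of 74.8 became 70.6 to 77.9 with 1 array left out. Receptors of inflammatory homing such as Cxcr6 (6.41 ± 0.04) and Ccr2 (5.75 in each array) were under the limit, and Ccr3 was the lowest (5.11 ± 0.09).

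Of 24 TNF receptor superfamily genes 15 lay above the limit. The costimulatory receptors OX40 (Tnfrsf4, 10.98 ± 0.13), 4-1BB (Tnfrsf9, 10.66 ± 0.26) and GITR (Tnfrsf18, 10.41 ± 0.17) stood well apart from the rest, of which the next was Tnfrsf8 at 8.89 ± 0.07. All 3 were highest in array 1. Fas, the death receptor gene, stood at 8.86 ± 0.08. Eda2r was the lowest (5.51 ± 0.05).

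Costimulatory and inhibitory receptors gave 10 of 17 genes above the limit. Ctla4, Cd28 (11.04 ± 0.05), Btla and Icos (10.60 ± 0.07) led, and Pdcd1, which encodes PD-1, stood at 9.43, 9.61 and 9.75 and Lag3 at 9.50, 9.44 and 9.31. Havcr2, which encodes the Th1-associated receptor TIM-3, was near the floor, at 5.29 in each array. Among 20 adhesion genes 13 lay above the limit. Cd2 was the highest (10.67 ± 0.05), Itgb7, of gut homing integrins, stood at 8.64 ± 0.10, and Itgam, of myeloid cells, was the lowest at 6.23 in each array. Those of LFA-1, Itgal (10.49 ± 0.05) and Itgb2 (10.49 ± 0.10), and Itga3 (10.25 ± 0.07), a laminin receptor chain, were in the upper band, while the gut retention integrin gene Itgae was at 6.93 ± 0.04.

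Glycolysis genes separated by isoenzyme, with 18 of 26 above the limit. Gapdh (13.27 ± 0.10), Pgk1 (12.71 ± 0.03), Pkm (12.56 ± 0.07) and Tpi1 (12.10 ± 0.07), which encode enzymes of the lower pathway, lay at the 99.7th percentile or higher. The forms of other tissues were under the limit: Pklr, of liver and red cells, at 7.22 ± 0.05, Ldhc, of testis, at 6.76 ± 0.05, Pgam2, of muscle, at 6.53 ± 0.15, and Pgk2, of testis, at 5.48 ± 0.09. Hk2, the inducible hexokinase, stood at 10.31 ± 0.10, Hk1 at 9.78 ± 0.13, and Hk3 was under the limit (7.15 ± 0.01). Pfkp, the platelet form of phosphofructokinase, stood at 11.52 ± 0.22. Of the lactate dehydrogenase genes, Ldha stood at 9.79 ± 0.02 and Ldhb at the limit (7.75, 7.79 and 7.70), and Slc16a3, which exports lactate, at 9.81 ± 0.15.

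Glucose enters T cells mainly through GLUT1 and GLUT3. Slc2a1, the gene of GLUT1, was at the 98.8th percentile (11.23 ± 0.27) on its brighter probe set and read 7.84 on the other. Slc2a3, the gene of GLUT3, varied more than any other list member, at 9.64, 8.92 and 8.52 (9.02 ± 0.57), and its percentile of 83.8 was 79.5 to 87.2 with 1 array left out. Of the 18 glycolysis genes above the limit, 16 had their highest value in array 1 and 2 their lowest, against 32.3% highest and 41.1% lowest among all 8180 genes above the limit. The median of array 1 minus the mean of arrays 2 and 3 over these 18 genes was 0.16 log2 units.

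Mitochondrial metabolism lay as high. Of 24 genes of the tricarboxylic acid cycle 23 were above the limit, from Mdh2 (11.24 ± 0.05) and Cs, the entry enzyme citrate synthase (11.04 ± 0.07), through the mitochondrial isocitrate dehydrogenase gene Idh2 (9.19 ± 0.05) down to its cytosolic relative Idh1 (8.01 ± 0.11). Pcx, the gene of pyruvate carboxylase, was the only one under it (7.19 ± 0.07). Of 36 nuclear genes of the respiratory chain 32 were above the limit, led by Atp5b, the catalytic subunit of ATP synthase (12.59 ± 0.03). The common forms of cytochrome oxidase subunits, Cox6a1 (11.86 ± 0.19) and Cox4i1 (9.89 ± 0.01), were in the upper band. Among the 4 that were not, Cox6a2, Cox4i2 and Cox7a1 encode tissue-restricted forms of cytochrome oxidase subunits, and Ndufb3 (7.53 ± 0.04) encodes a subunit of complex I. In the pentose phosphate pathway 5 of 8 genes lay above the limit, with Pgd the highest (10.49 ± 0.03) and Tktl2 the lowest (5.23 ± 0.09).

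All 18 genes of cholesterol synthesis lay above the limit. Hmgcs1, the enzyme before the rate-limiting step, stood at 11.23 ± 0.12, and Srebf2, the regulator of the pathway, at 10.58 ± 0.05. Cyp51 (10.30 ± 0.14), Sc5d (10.26 ± 0.19) and Sqle (9.73 ± 0.19), of the sterol part of the pathway, were in the upper band, and Mvk was the lowest (8.14 ± 0.01). For fatty acids 18 of 23 genes lay above the limit. The synthesis genes Acly (11.35 ± 0.07), Fasn (11.07 ± 0.12) and Acaca (9.62 ± 0.07) were in the upper band, as was Scd1, a desaturase gene that varied more (9.82, 10.06 and 9.41). Cpt1a, the gate of mitochondrial fatty acid oxidation, was at 8.70 ± 0.08, and the uptake and transport genes Cd36 (4.97 ± 0.11) and Fabp4 (4.72 ± 0.12) of fat cells and macrophages were near the floor.

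Amino acid supply was also high, with 14 of 16 genes above the limit. Slc7a5 (11.23 ± 0.08) and Slc3a2 (10.58 ± 0.20), the chains of the large neutral amino acid transporter, were in the upper band. So was Slc1a5, a glutamine transporter (10.39 ± 0.14, 8.03 on its other probe set). Got2, the mitochondrial aspartate aminotransferase, was the highest at 11.69 ± 0.03 on its brighter probe set and read 6.96 on the other. Slc7a11, the cystine transporter, was the lowest at 5.27 ± 0.22. All 18 genes of purine and pyrimidine synthesis lay above the limit, from Rrm1, a ribonucleotide reductase subunit (11.39 ± 0.01), through its partner Rrm2 (10.58 ± 0.08, 6.45 on its other probe set), to Dhodh (8.31 ± 0.04). Of the serine and one-carbon genes 11 of 14 did so. Shmt2 (11.56 ± 0.17) and Mthfd2 (10.52 ± 0.05), of the mitochondrial folate arm, and the cytosolic Shmt1 (9.64 ± 0.13) were in the upper band. Phgdh, the first enzyme of serine synthesis, stood at 8.95 ± 0.01, and Mat1a, the liver form of methionine adenosyltransferase, was the lowest (6.95 ± 0.06). In polyamine and arginine metabolism Odc1, the rate-limiting enzyme of polyamine synthesis, stood at 11.29 ± 0.10, while the arginine enzymes Arg1 (7.66 ± 0.02), Nos2 (7.39 ± 0.19), Arg2 (6.62 ± 0.05) and, lowest of the list, Otc of the urea cycle (6.09 ± 0.05) were under the limit.

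Genes of proliferation were among the highest lists. Of 25 cell cycle genes 24 lay above the limit and 22 in the upper band, led by Pcna (12.04 ± 0.10) and Mki67 (11.82 ± 0.04). The mitotic kinase gene Cdk1 stood at 9.69 ± 0.02. Among the D cyclins, Ccnd2 (11.72 ± 0.05) and Ccnd3 (9.40 ± 0.09) lay above the limit and Ccnd1 under it (6.95 ± 0.10). Inhibitors and p53 targets lay lower, with 8 of 15 above, from Ccng1 (10.80 ± 0.11) to Bbc3, the gene of the death factor PUMA (6.52 ± 0.02). Cdkn1a, the gene of p21, stood at 10.65, 9.69 and 9.79, its array 1 apart from the other 2. Of 23 Swi/Snf subunit genes 19 lay above the limit. Smarca4, the ATPase BRG1, stood at 10.10 ± 0.03 and the alternative ATPase gene Smarca2 at 8.07 ± 0.09. Smarcc1, the core subunit SRG3, stood at 10.13, 10.32 and 10.39. Phf10 was the highest (10.38 ± 0.10, 7.63 on its other probe set) and Dpf3 the lowest (6.33 ± 0.05).

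Markers of other cells that a spleen sort could carry over were mostly under the limit. Of 11 B cell and MHC class II genes 3 lay above it, and the median of the list was 7.48, 7.57 and 7.19 in the 3 arrays. These were H2-Ab1 (9.48, 9.27 and 8.94), H2-Eb1 (8.35 ± 0.03) and Ighm (10.32, 10.67 and 10.18), the last with 7 probe sets that ranged down to 4.97. The defining B cell genes Ms4a1 (7.38 ± 0.17), Cd79b (7.12 ± 0.08) and Pax5 (7.33 ± 0.23) were under the limit in each array, and Cd79a passed it in 1 array, at 7.67, 7.80 and 7.43. Cr2, a complement receptor gene of B cells, was the lowest (6.74 ± 0.17). Of 14 myeloid genes, Fcer1g alone lay above the limit (7.90 ± 0.01), with Lyz2 at 6.40 ± 0.13 and S100a8, the lowest, at 5.34 ± 0.14. Of 8 genes of CD8, NK and γδ T cells, Cd8b1 (8.51 ± 0.09) and Sox13 (7.84 ± 0.10) lay above it, but Cd8a did not (7.57 ± 0.04), and Klrk1, the gene of NKG2D, was the lowest (5.05 ± 0.13). None of 6 erythroid and platelet genes did, from the platelet integrin gene Itga2b (7.49 ± 0.07) to the platelet chemokine gene Ppbp (6.10 ± 0.07). The part of such cells in the values above was not tested.

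Among the 20 named genes with the highest intensities, 9 were genes of the mitochondrial genome: COX1 (13.70), ND4, CYTB, ND5, ND1, ND2, ND4L, COX3 and ND3. The rest of the 20 held translation genes (Eif4a1, Eef1a1, Eef2, Rpl21, Rps6 and Rpl4), Gapdh, and the noncoding RNA genes Rn7sk, Snora33 and Mir5099. It also held Gm12718, a gene model without a known function. Of 66 ribosomal protein genes 54 lay above the limit, with a median percentile of 97.3.

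The arrays differed most in a few genes above the limit. The largest SD was that of Rabggtb, which encodes a subunit of the enzyme that adds lipid anchors to Rab proteins, at 8.33, 9.64 and 9.77. Next came Mid1, a ubiquitin ligase gene (9.09, 8.49 and 9.98), and the small nucleolar RNA gene Rnu3a (9.28, 10.73 and 10.07). Further small nucleolar RNA genes were low in array 1: Snora73b at 10.17, 11.11 and 11.25, Snora73a at 9.93, 10.88 and 10.92, and Snora44 at 8.95, 10.02 and 9.77. Of 69 small nucleolar RNA genes above the limit, 43 had their lowest value in array 1 (62.3%) and 4 their highest. In the other direction Slc2a3 and Ndrg1, a gene known to respond to low oxygen (10.38, 9.62 and 9.32), were highest in array 1. Sh3gl2, which encodes an endophilin of membrane curving, ran from 11.86 in array 1 to 10.76 in array 3, and Vamp7, of vesicle fusion, was high in array 2 only (8.41, 9.35 and 8.41).

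**Figure D5:**
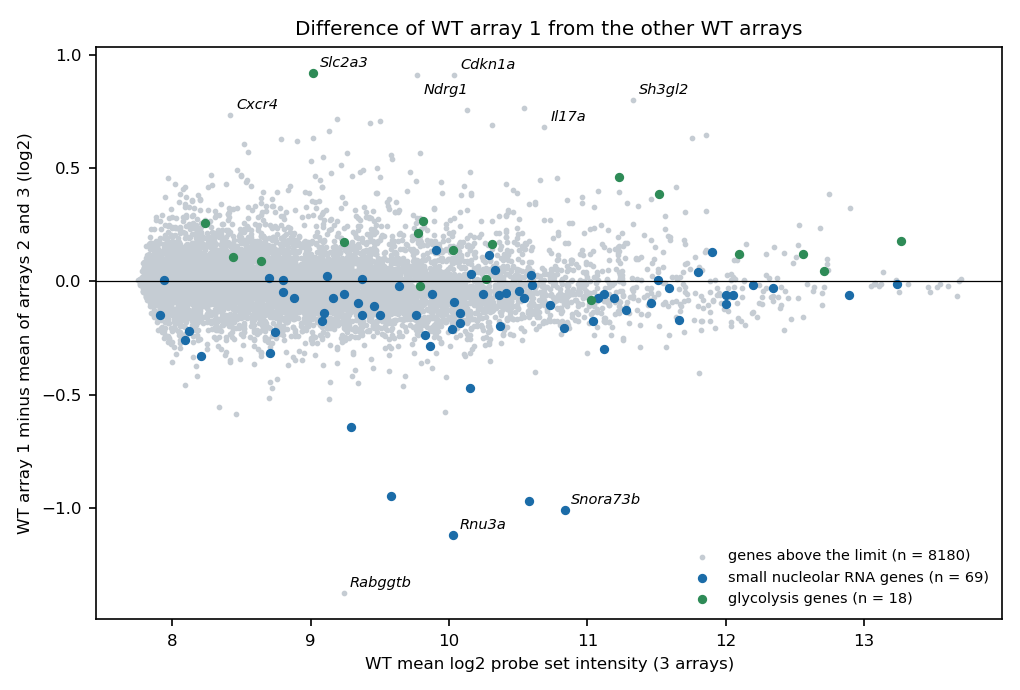
Array 1 minus the mean of arrays 2 and 3 (vertical axis, log2 units) against the WT mean log2 probe set intensity (horizontal axis) for the 8180 genes above the receptor limit; small nucleolar RNA genes are blue and glycolysis genes green. Most genes lie near 0, with Rabggtb, Rnu3a and Snora73b well under it and Slc2a3, Cdkn1a and Ndrg1 well over it.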

How the data were processed

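Samples and culture were taken from the labels. Biotin-labelled cDNA from total RNA of the 3 WT cultures was measured on GeneChip arrays, per the labels (41345 probe sets). The values are log2 probe set intensities as deposited by the authors. Background correction, probe summary and normalization are not given in the sources used here. Only the 3 WT columns were used, and no sample column was unmapped (0).

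Only the 23521 probe sets with 1 gene symbol were used; 1814 with several symbols and 16010 without a symbol were not. Symbols were updated by gene ID (23328 matched) with RefSeq's GRCm38.p6 table. For 1082 genes with several probe sets the one with the highest WT mean was used. Percentiles are positions among 22180 genes. Levels, SDs and counts were computed with pandas 2.3.3 in Python 3.11.15, after the procedure was tested on simulated data. No test was run, and the number of arrays limits the precision.

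Members and lists were chosen with earlier results of these data known. Named are the highest, lowest and key genes of each list, the 20 brightest genes and the 10 most variable above the limit; further list members are named as examples chosen after their values were seen. Of the list members 65 had no probe set of their own. 1 item is not reported here. Alternatives covered the probe set, limit, band, scaling and arrays used.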

Additional observations from a re-analysis of the deposited data

How the results depend on the processing

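Of 112 recomputed counts for all genes and the 4 gene classes, 107 stayed within 1.5 times the value given. Some of these could hardly move. Each array has its own limit, so rescaling the arrays or taking their median left the counts above the limit unchanged. With the receptor limit at the 99th percentile of the olfactory receptor genes, 5131 genes instead of 8180 and 25 cytokine genes instead of 39 lay above it. The upper 5% held 21 receptor genes and the upper 20% held 61, against 33 in the upper 10%, and the upper 20% held 22 cytokine genes against 14. These shifts follow from the narrower or wider band itself. With 1 array left out at a time, 8246 to 8329 genes lay above the limit. Among them were 94 to 96 lineage, 39 to 41 cytokine, 103 to 104 receptor and 165 to 167 metabolic genes. In the upper band were then 49 to 51, 14 to 14, 33 to 33 and 98 to 100. For the counts above the limit, a gene then had to pass in fewer arrays. Those counts could therefore hardly fall, and they are no check in that direction. Of 480 recomputed list counts 21 moved by more than 1.5 times, in 14 of 40 lists. These 480 also include the rescaled and median recomputations that could hardly move. Of 195 recomputed percentiles of 18 named genes, 36 moved by more than the gene's SD over the arrays, in 14 of the genes. Such a move can be small, as for Il21 (98.7 to 99.3), or larger, as for Foxp3 (44.2 to 51.9). Under all alternatives Ighm ranged from percentile 7.49 to 96.9 and Csf2 from 32.1 to 66.8. The lower values come from their dimmer probe sets. No paired analysis was possible because the results come from no comparison of groups and no test. Levels under the receptor limit cannot be told from the signal of probes without their transcript.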

Other observations

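Brightness did not always go with a known role. Vmn1r233, a vomeronasal receptor gene, stood at 12.67, 12.75 and 12.69, while the median of the 285 vomeronasal receptor genes was 4.69 and 13 of them lay above the receptor limit. Of 483 microRNA genes 93 lay above the limit (19.3%, against 36.9% of all named genes). Mir449b, of a family known from ciliated epithelia, stood at 12.63, 12.44 and 12.50. Both were named after their values were seen, and whether their probes bind other transcripts was not tested.

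The metallothionein genes Mt1 (10.77, 10.11 and 10.05) and Mt2 (11.05, 10.25 and 10.32), which encode proteins that bind zinc, were highest in array 1, in the same direction as Slc2a3, Ndrg1 and Cdkn1a. Genes of division went slightly the other way: of 24 cell cycle genes above the limit 17 had their lowest value in array 1, and of 18 purine and pyrimidine synthesis genes 15 did so, with median differences of -0.05 and -0.06 log2 units, against 41.1% of all genes above the limit. These genes too were picked after their values were seen.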
